A study of Rattus norvegicus with 49 samples.

Results

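Pou3f1, Wfs1, Dkk3 and Gpr161 are listed together as identity genes of CA1 pyramidal cells, the excitatory neurons of the CA1 field of the hippocampus. They were found by the gene symbol of the platform annotation, which gave 6 probe sets for 4 genes out of 15923 probe sets on the array. Each gene was read from its brightest probe set (1370432_at for Pou3f1, 1368839_at for Wfs1, 1370328_at for Dkk3 and 1384546_at for Gpr161), and all 4 were among the 8094 genes tested. The tissue was the CA1 region dissected from the left hippocampus of Fisher 344 rats that had been trained in a water maze, with 1 Affymetrix RAE 230A array for each animal. Rats aged 3, 6, 9 and 12 months made groups of 9 each and those aged 23 months a group of 13, which gave 49 arrays. No group carried an engineered allele or a drug treatment in the labels, and age was the factor that set them apart. Prox1, a homeobox gene of dentate granule cells, was read on the same arrays as a measure of neighbouring tissue in the dissected piece.

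CA1 pyramidal cells receive input from CA3 and form the main output of the hippocampus proper. Pou3f1 encodes a POU-domain transcription factor that binds the octamer motif and is also known from the Schwann cell lineage. Wfs1 encodes wolframin, a membrane glycoprotein of the endoplasmic reticulum whose loss causes Wolfram syndrome in humans. Dkk3 encodes a secreted glycoprotein of the Dickkopf family, whose other members inhibit Wnt signalling. Gpr161 encodes an orphan G protein-coupled receptor that, in mice, sits in the primary cilium and holds hedgehog signalling down through protein kinase A. Prox1 encodes a transcription factor that dentate granule cells need for their identity.

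Promoter sequence is shown for Wfs1 and Gpr161, because no promoter window was found for Pou3f1 and Dkk3 in the reference set used. Each line gives the 250 bases before the gene's first start in RefSeq, read 5′ to 3′ on the + strand of assembly GRCr8. Capitals mark GC boxes (GGGCGG or its reverse complement CCGCCC) and, in Wfs1, a CCAAT box in its reverse complement (ATTGG).
Wfs1, chr14:78034955-78035204: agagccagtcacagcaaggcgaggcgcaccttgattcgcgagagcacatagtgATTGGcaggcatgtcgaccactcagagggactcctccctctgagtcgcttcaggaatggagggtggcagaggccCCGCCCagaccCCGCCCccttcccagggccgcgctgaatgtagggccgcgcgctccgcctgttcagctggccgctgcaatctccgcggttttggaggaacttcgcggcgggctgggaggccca
Gpr161, chr13:80111021-80111270: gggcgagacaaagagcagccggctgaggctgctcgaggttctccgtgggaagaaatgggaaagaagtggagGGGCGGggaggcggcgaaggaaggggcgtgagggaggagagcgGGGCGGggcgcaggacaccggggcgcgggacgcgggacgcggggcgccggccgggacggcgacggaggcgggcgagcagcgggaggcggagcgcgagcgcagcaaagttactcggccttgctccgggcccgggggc
Both windows held 2 GC boxes, at 123 and 112 bases before the start of Wfs1 (positions −123 and −112) and at positions −179 and −136 of Gpr161. The CCAAT box of Wfs1 lay at −197, and none was found in the Gpr161 window. The table also lists a later start of Gpr161, whose window held a CCAAT box at −89 and 0 GC boxes. Over 33469 promoter windows of the same length, 30.5% held a GC box and 34.0% a CCAAT box on either strand. GC content was 66% for Wfs1 and 74.8% for Gpr161, against a median of 51.2% over all windows. The octamer ATGCAAAT, which is bound by POU factors, was not in these letters of either window on either strand, and 1.56% of all windows held it. The same was true of TATAAA (12.9% of windows) and of the cyclic AMP response element TGACGTCA (1.59%).

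Signal is given below as MAS5 intensity, a linear measure by which each gene was compared with itself across arrays. All 4 members stood above a signal of 100, which is not a presence call, on 49 of 49 arrays. Prox1 was also above that level everywhere, between 274.1 and 1073.2, while Dsp and Trpc6, other genes of the dentate list, had lowest signals of 55.4 and 79.8. A few arrays stood apart by transcripts of other tissue. Transthyretin (Ttr), a transcript of the choroid plexus, had a signal of 3908 or more on 5 arrays (3 months replicates 4, 6, 7 and 8, and 23 months replicate 11) and at most 1123.4 elsewhere. The haemoglobin gene Hbb had 4388.1 and 658.6 on 23 months replicates 8 and 5 and at most 210.3 elsewhere. The differences of the members at 23 against 3 months are given below with and without the arrays of high Ttr signal.

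Pou3f1 was lower in the oldest rats. Its signal lay between 754.1 and 1171.4 at 3 months (median 980.7), between 651.7 and 1090.2 at 6 months (median 862.6) and between 721 and 903.2 at 9 months (median 806.1). At 12 months it lay between 682.5 and 864.3 (median 788.7), and at 23 months between 604.1 and 972.7 (median 781). The ranges of all 5 ages overlapped, and the 6 lowest arrays of 23 months, replicates 7, 5, 6, 9, 8 and 15, lay below every array of 3 months. The mean signal was 958 ± 129 at 3 months, 882 ± 162 at 6 months, 812 ± 61.3 at 9 months, 787 ± 64.1 at 12 months and 768 ± 126 at 23 months (SD, n = 9, 9, 9, 9 and 13), lower at each age than at the one before. At 23 against 3 months the log2 difference was −0.32 ± 0.084 (SE), with a 95% confidence interval of −0.49 to −0.16, which is 1.25-fold lower (limma, Benjamini-Hochberg adjusted p = 0.0144 over 8094 genes). The signal of 12 of 13 arrays of 23 months was below the mean of 3 months on the log2 scale. Of all genes tested, 3.26% passed this comparison in either direction, 2.41% as higher and 0.852% as lower. In bulk tissue, fewer cells of a type and less RNA per cell cannot be told apart. Without the arrays of high Hbb signal (23 months replicates 5 and 8, at 621.1 and 672 for Pou3f1) the difference was −0.28 and no longer passed (adjusted p = 0.0594). Without the 5 arrays of high Ttr signal it was −0.38 (adjusted p = 0.0278). By a plain test of these same groups, of the kind the study's methods name, it did not pass (adjusted p = 0.093).

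The steps of Pou3f1 between neighbouring ages did not differ beyond the spread of their animals. The log2 differences were −0.13 at 6 against 3 months, −0.10 at 9 against 6 months, −0.045 at 12 against 9 months and −0.049 at 23 against 12 months, each with an adjusted p of at least 0.928. At 12 against 3 months Pou3f1 was 1.21-fold lower, with 9 of 9 arrays below the mean of 3 months, and did not pass (log2 difference −0.28, adjusted p = 0.299). Of all genes 0.222% passed there. At 9 against 3 months the difference was −0.23 (adjusted p = 0.9996), where 0.0371% of genes passed, and at 6 against 3 months 0.0124% passed. The moderated F-test over 5 ages gave an adjusted p of 0.129 for Pou3f1, in a test that 1.88% of genes passed.

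Wfs1 had the narrowest spread in the youngest rats and no difference that passed. Its signal lay between 5199.4 and 6109.6 at 3 months (median 5604.6), between 4262.7 and 6550.2 at 6 months (median 5381.3) and between 4463.7 and 6025 at 9 months (median 5088). At 12 months it lay between 4901.1 and 6707.1 (median 5581.4), and at 23 months between 4123 and 6348.5 (median 5119.5). The 5 ages overlapped widely, and 7 arrays of 23 months lay below the lowest of 3 months while the highest lay above all of them. The means were 5656 ± 300.5 at 3 months, 5437 ± 842 at 6 months, 5131 ± 500.05 at 9 months, 5553 ± 554 at 12 months and 5129 ± 679 at 23 months (SD). In order of level the ages ran 3, 12, 6, 9 and 23 months, and no neighbours in that order differed beyond their spread (adjusted p at least 0.957). At 23 against 3 months Wfs1 was 1.11-fold lower (log2 difference −0.15 ± 0.068, 95% confidence interval −0.29 to −0.014), lower in 10 of 13 arrays than the mean of 3 months, and did not pass over all genes (adjusted p = 0.269). A second probe set of Wfs1, 1387356_at, gave −0.29 ± 0.10 (adjusted p = 0.116 with every probe set tested), in the same direction. Without the 5 arrays of high Ttr signal Wfs1 was at −0.13 (adjusted p = 0.565). The signals of the 2 probe sets had a Pearson r of 0.75 over 49 arrays after the age means were subtracted.

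Dkk3 had the smallest within-age SD of the members, 0.11 on the log2 scale, against 0.16 for Wfs1, 0.20 for Pou3f1 and 0.21 for Gpr161. Its signal lay between 2007.7 and 2433 at 3 months (median 2185.5), between 2100.7 and 2766.2 at 6 months (median 2226.5) and between 2023.3 and 2300.2 at 9 months (median 2171.2). At 12 months it lay between 2072.6 and 2518.7 (median 2287.5), and at 23 months between 1714.6 and 2404 (median 2026.6). The 4 younger ages covered much the same range, and 5 arrays of 23 months lay below the lowest of 3 months. The means were 2231 ± 157 at 3 months, 2299 ± 217 at 6 months, 2186 ± 95.9 at 9 months, 2267 ± 151 at 12 months and 2051 ± 206 at 23 months (SD). The order of level was 6, 12, 3, 9 and 23 months, with no neighbours apart beyond their spread (adjusted p at least 0.502). The log2 difference at 23 against 3 months was −0.12 ± 0.050 (95% confidence interval −0.23 to −0.025), 1.09-fold lower in a comparison it did not pass (adjusted p = 0.188), with 10 of 13 arrays below the mean of 3 months. Without the 5 arrays of high Ttr signal the difference was smaller, −0.080 (adjusted p = 0.640); 23 months replicate 11, which is among them, had the lowest Dkk3 signal of all arrays. Against 6 months, the age of highest mean, it was −0.17 with 11 of 13 arrays lower (adjusted p = 0.0856), where 1.45% of genes passed, and against 12 months it was −0.15 (adjusted p = 0.299), where 0.358% passed. The other probe set of Dkk3 did not reach the signal filter and was not tested.

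Gpr161 had the widest within-age SD of the members, close to that of Pou3f1. Its signal lay between 1612.4 and 2555.5 at 3 months (median 2098.8), between 1729.6 and 2606 at 6 months (median 2103.4) and between 1490.9 and 2335.3 at 9 months (median 1944.9). At 12 months it lay between 1559.2 and 2482.8 (median 2017.9), and at 23 months between 1495.5 and 2262.4 (median 1807.4). All ages overlapped over most of their range, and only 2 arrays of 23 months, replicates 9 and 11, lay below the lowest of 3 months. The means were 2123 ± 302 at 3 months, 2151 ± 292 at 6 months, 1896 ± 295 at 9 months, 2015 ± 349 at 12 months and 1862 ± 214 at 23 months (SD). In the order 6, 3, 12, 9 and 23 months no neighbours differed beyond their spread (adjusted p at least 0.876). At 23 against 3 months Gpr161 was 1.14-fold lower (log2 difference −0.18 ± 0.086, 95% confidence interval −0.36 to −0.012), below the mean of 3 months in 11 of 13 arrays, and did not pass (adjusted p = 0.287). Without the 5 arrays of high Ttr signal it was at −0.23 (adjusted p = 0.320).

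**Figure D1:**
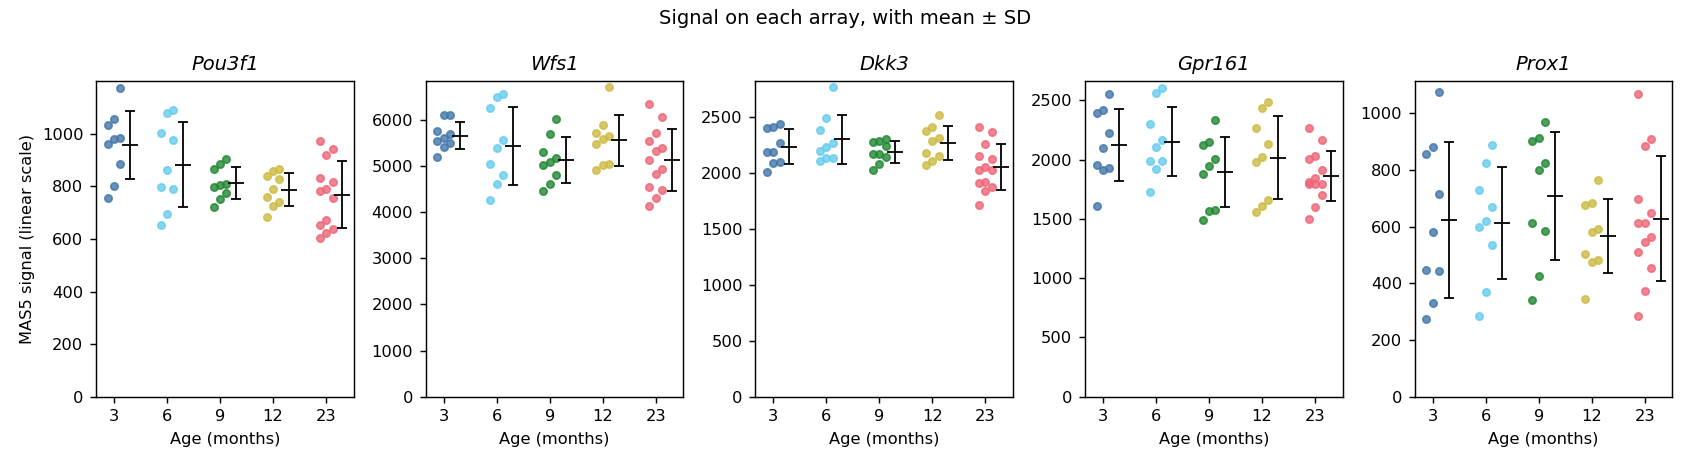
MAS5 signal of the 4 members and of Prox1 on each array (points), by age in months, with the mean ± SD of each age beside them; the vertical axes are linear and start at 0. Pou3f1 has its highest mean at 3 months (958) and its lowest at 23 months (768), and the ages overlap in every panel.

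At 23 against 3 months 1 of 4 members passed, Pou3f1, where 3.26% of all genes passed and 0.852% were lower, and all 4 had a lower mean in the older rats. At an unadjusted limma p under 0.05 stood 4 of the 8 tested CA1 genes, the members, and 1167 of 8094 genes in all. The median log2 difference over the tested genes of the CA1 list was −0.10 with the members and −0.063 without them, against 0.00085 over all 8094 genes. The members and the list were chosen with earlier results of these data known. That count and the medians with and without the members are thus not independent of the choice. That list held 12 genes, of which 8 were tested. The 4 tested genes of the list other than the members, Man1a1, Mpped1, Fibcd1 and Pex5l, also had lower means at 23 months and 0 passed in limma, also at an unadjusted p under 0.05: their log2 differences ran from −0.075 to −0.061 (adjusted p at least 0.731). Fibcd1, an acetyl-group binding membrane receptor, averaged 737 ± 132 at 23 months and 777 ± 145 at 3 months (SD). Mpped1, a metallophosphoesterase domain protein, averaged 3806 ± 454 at 23 months and 3978 ± 518 at 3 months. Every comparison with 3 months used the same 9 animals, so the differences at different ages are not independent of each other.

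At the threshold of the study's own methods, an unadjusted p of at most 0.05 in a plain test over 5 ages, Pou3f1 (p = 0.00655) and Dkk3 (p = 0.0101) passed, and Wfs1 (p = 0.173) and Gpr161 (p = 0.110) did not. That rule took 757 genes, 9.35% of those tested, and 149 genes but none of the members passed it after Benjamini-Hochberg adjustment.

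A change linear in months, a description chosen after the data were seen, was negative for each member. Over 20 months the line of Pou3f1 fell by 0.27 ± 0.075 on the log2 scale (SE, limma adjusted p = 0.0171) and that of Dkk3 by 0.15 ± 0.045 (adjusted p = 0.0375). So 2 of 4 members passed where 5.11% of all genes did in either direction and 1.64% were lower. A line does not show a steady fall. Against 3 months Dkk3 was at 0.041, −0.027 and 0.024 at 6, 9 and 12 months and at −0.12 at 23 months. Pou3f1 was already at −0.28 at 12 months, against −0.32 at 23 months. The fitted changes of Wfs1 (−0.11, adjusted p = 0.332) and Gpr161 (−0.18 ± 0.076, adjusted p = 0.176) did not pass. The Pou3f1 line lost its call without 23 months replicates 5 and 8 (−0.24, adjusted p = 0.0802). The Dkk3 line lost its call when any 1 of 12 arrays was left out, which were replicates 2, 4 and 6 of 3 months, replicate 6 of 6 months and replicates 3, 4, 5, 10, 11, 13, 14 and 15 of 23 months. The largest adjusted p among them was 0.0975, without 23 months replicate 11, an array of high Ttr signal and the one with the lowest Dkk3 signal of all, 1714.6. Without all 5 arrays of high Ttr signal the change of Dkk3 was −0.12 (adjusted p = 0.149), and without the arrays of high Hbb signal −0.14 (adjusted p = 0.0672).

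**Figure D2:**
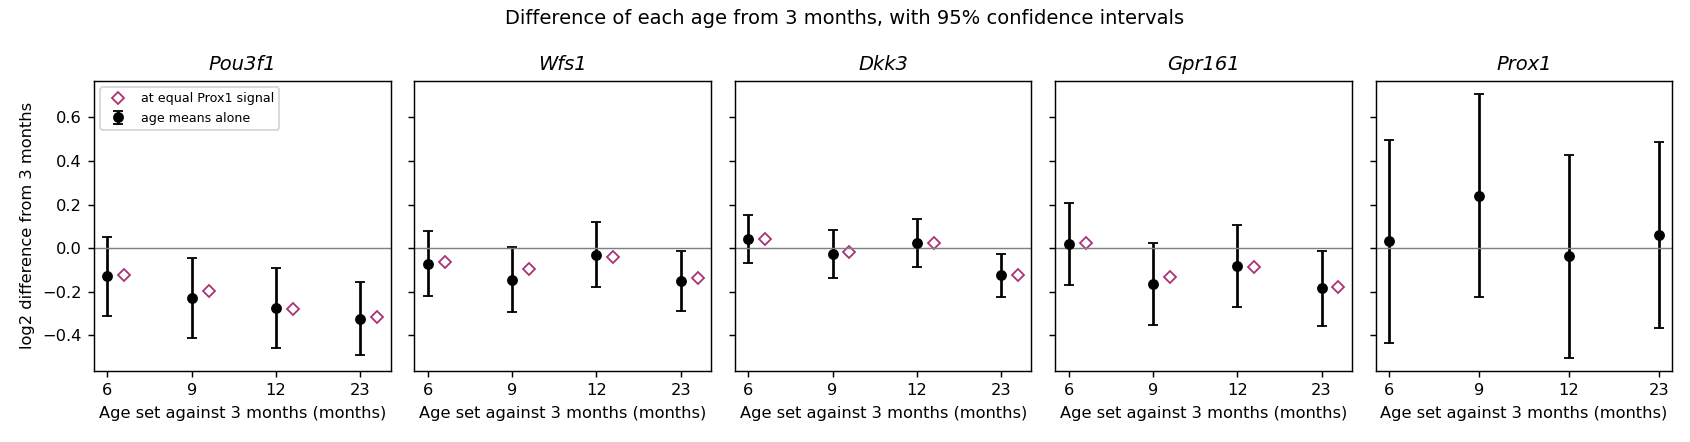
Log2 difference from 3 months at 6, 9, 12 and 23 months for the 4 members and Prox1; filled points with 95% confidence intervals come from the fit of age means, and open diamonds from the fit that also holds log2 Prox1 signal. At 23 months the interval of Pou3f1 runs from −0.49 to −0.16, and the diamonds stay close to the filled points.

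No age difference of Prox1 passed, and its signal differed widely within each age. Its signal lay between 274.1 and 1073.2 at 3 months (median 580.8), between 285.6 and 888.5 at 6 months (median 618.1) and between 341.5 and 970.4 at 9 months (median 801.1). At 12 months it lay between 343.7 and 764.6 (median 581.5), and at 23 months between 283.1 and 1066.5 (median 611). The arrays of 23 and 3 months covered nearly the same range. The log2 difference at 23 against 3 months was 0.061 ± 0.21 (95% confidence interval −0.37 to 0.49, adjusted p = 0.950), and the F-test over ages gave an adjusted p of 0.990.

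Wfs1 was lower on arrays of high Prox1 signal, and the other members less clearly so. In a fit with a mean per age, the slope of Wfs1 was −0.20 ± 0.035 log2 units per log2 unit of Prox1 (SE, limma adjusted p = 1.02e-04 over 8093 genes), rank 61 by p. At 6 months, for example, replicates 2 and 1 had the lowest Prox1 signals of their age, 285.6 and 368.1, with Wfs1 at 6497.3 and 6550.2, while replicate 9 had the highest Prox1, 888.5, and the lowest Wfs1, 4262.7. Slopes were −0.14 ± 0.053 for Gpr161 (adjusted p = 0.0894), −0.13 ± 0.052 for Pou3f1 (adjusted p = 0.106) and −0.039 ± 0.032 for Dkk3 (adjusted p = 0.505). One of 4 members thus passed, where 6.47% of all genes had a slope that passed in either direction, 2.72% a negative and 3.76% a positive one. The slope of Gpr161 passed without 6 months replicate 2 (−0.17, adjusted p = 0.0477), an array of low Prox1 signal with a Gpr161 signal of 1916.4. The second probe set of Wfs1 had a slope of −0.32 ± 0.051 (adjusted p = 1.95e-05 over all probe sets). The Prox1 line took up 41.1% of the within-age variance of Wfs1, 13.4% of that of Gpr161, 12.7% of that of Pou3f1 and 3.26% of that of Dkk3.

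**Figure D3:**
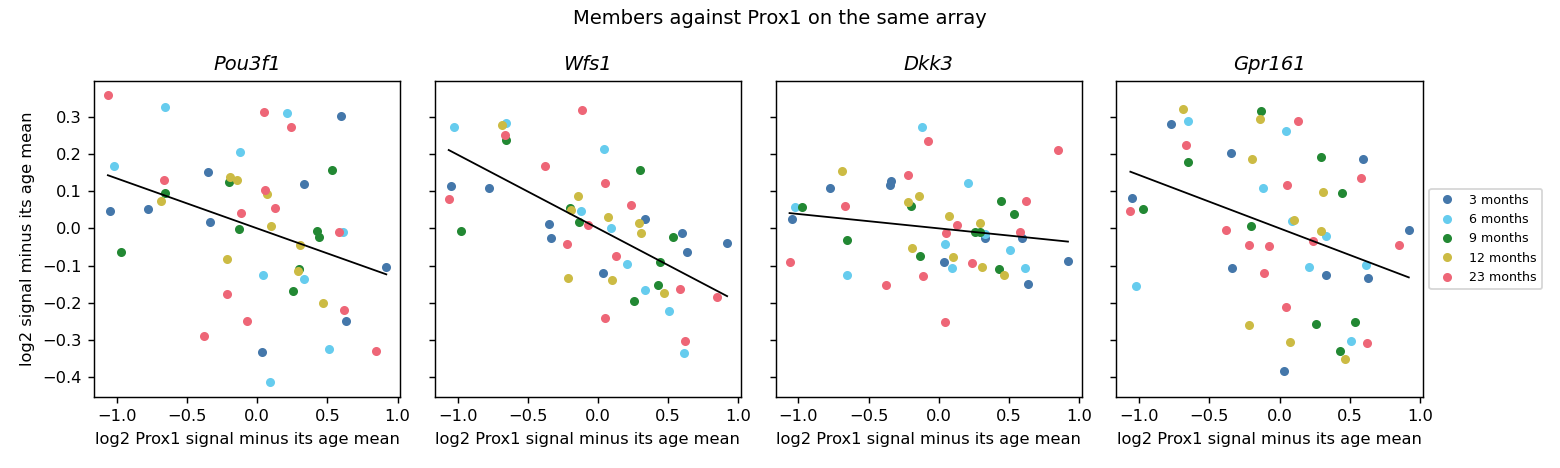
Log2 signal of each member against log2 Prox1 signal on the same array, each with its age mean subtracted; 1 point is 1 of 49 arrays, coloured by age, and the line is the fitted slope. The points of Wfs1 follow a falling line (slope −0.20), and those of Dkk3 lie nearly level (slope −0.039).

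Over 49 arrays with age means subtracted, 4 relations with Prox1 were computed, with two-sided permutation tests of 100000 resamples within ages. Wfs1 had a Pearson r of −0.64 and a Spearman rho of −0.66 (permutation p = 1e-05 for both, the smallest these permutations can give). Gpr161 had −0.37 and −0.37 (permutation p = 0.011 and 0.01), and Pou3f1 had −0.36 and −0.36 (permutation p = 0.021 and 0.016). Dkk3 had −0.18 and −0.23 (permutation p = 0.24 and 0.13). Without the 2 arrays farthest from the median of Prox1, 23 months replicate 4 and 3 months replicate 1, Pearson r was −0.66 for Wfs1, −0.37 for Gpr161, −0.30 for Pou3f1 and −0.23 for Dkk3, each with the sign it had over all arrays. Within single ages the sign of Wfs1 was negative each time, with r of −0.67 at 3 months, −0.89 at 6 months, −0.48 at 9 months, −0.71 at 12 months and −0.65 at 23 months. Gpr161 was negative in all ages as well, between −0.55 and −0.28, and so was Pou3f1, between −0.64 and −0.066, although its Spearman rho at 9 months was 0.083. For Dkk3 the sign differed between ages: r was −0.73 at 3 months, −0.17 at 6 months, −0.14 at 9 months, −0.80 at 12 months and 0.29 at 23 months. The slope of Dkk3 at 23 months was 0.18 above the mean slope of the other ages (limma p = 0.019), which did not pass over all genes (adjusted p = 0.994); 0 of 8093 genes passed that limma test and 334 had an unadjusted p under 0.05. In the F-test of unequal slopes over 5 ages 0 genes passed and 371 had an unadjusted p under 0.05, Wfs1 among them (p = 0.042, adjusted p = 0.9998).

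With other transcripts of dentate granule cells as the measure Dkk3 again had the slope nearest to 0. In place of Prox1, the mean of Dsp, Trpc6 and Stxbp6 gave slopes of −0.27 for Gpr161 (adjusted p = 0.0257), −0.27 for Wfs1 (adjusted p = 0.00144), −0.24 for Pou3f1 (adjusted p = 0.0468) and −0.074 for Dkk3 (adjusted p = 0.403). With this measure 3 of 4 members passed. These slopes are per log2 unit of that mean, so their size cannot be set directly beside that of the slopes on Prox1. The share of all genes that passed with it was not computed, so the count cannot be set against a background. The 3 genes themselves rose with Prox1 signal, with slopes of 0.92 for Dsp (desmoplakin), 0.51 for Trpc6 (a cation channel) and 0.45 for Stxbp6 (a syntaxin-binding protein). With age means subtracted, Dkk3 had a Pearson r of −0.074 with Dsp, −0.35 with Trpc6 and −0.31 with Stxbp6. Pou3f1 had −0.40, −0.35 and −0.40 with the same genes. Summed over the 4 tested genes of the dentate list, signal lay between 2252 and 4470 at 23 months (median 2962) and between 1841 and 4184 at 3 months (median 3019). The brightest genes weigh most in that sum. On the log2 scale all 4 had a higher mean at 23 than at 3 months, with a list median difference of 0.16. In limma 0 of the 4 passed at 23 against 3 months, also at an unadjusted p under 0.05.

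At equal Prox1 signal the age difference of Pou3f1 was almost unchanged in size. With log2 Prox1 in the fit, the difference at 23 against 3 months was −0.32 ± 0.079, or 1.24-fold lower (limma adjusted p = 0.00999), in a comparison that 3.68% of genes passed, 1.01% with a lower level. The same fit gave −0.14 ± 0.054 for Wfs1 (adjusted p = 0.161), −0.12 ± 0.050 for Dkk3 (adjusted p = 0.185) and −0.18 ± 0.081 for Gpr161 (adjusted p = 0.270), of which none passed. With the mean of the dentate list as the covariate Pou3f1 was at −0.29 (limma adjusted p = 0.0204). In that fit Wfs1 was at −0.11 (adjusted p = 0.359), Dkk3 at −0.11 (adjusted p = 0.231) and Gpr161 at −0.15 (adjusted p = 0.390). For Wfs1 and Gpr161 these differences were smaller than with Prox1 as the covariate. The within-age SD of Wfs1 was 0.16 before and 0.13 after Prox1 was taken into the fit, on the log2 scale.

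The members differed in how closely they followed each other from animal to animal. Over 49 arrays with age means subtracted, Wfs1 and Gpr161 had a Pearson r of 0.55, given as a description, and Gpr161 was rank 32 of 8093 genes in likeness to Wfs1. Pou3f1 had r of 0.35 with Wfs1 and 0.33 with Gpr161. Dkk3 had lower values, with r of 0.19 with Gpr161, 0.083 with Wfs1 and 0.014 with Pou3f1. For comparison, the middle 90% of r with all genes ran from −0.36 to 0.35 for Wfs1 and from −0.34 to 0.33 for Dkk3. It ran from −0.34 to 0.34 for Pou3f1 and from −0.32 to 0.30 for Gpr161. The r of Pou3f1 with Wfs1 and with Gpr161 thus lay near the upper ends of these ranges. The points of each pair share the array, its scaling and the dissected piece. Among the other CA1 genes, Wfs1 had r of 0.67 with Mpped1 and 0.60 with Fibcd1, Gpr161 had 0.55 and 0.50 with the same genes, and Pou3f1 had 0.52 with Man1a1, a Golgi mannosidase. Dkk3 had 0.28 with Mpped1 and −0.23 with Pex5l, a regulator of HCN channels.

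**Figure D4:**
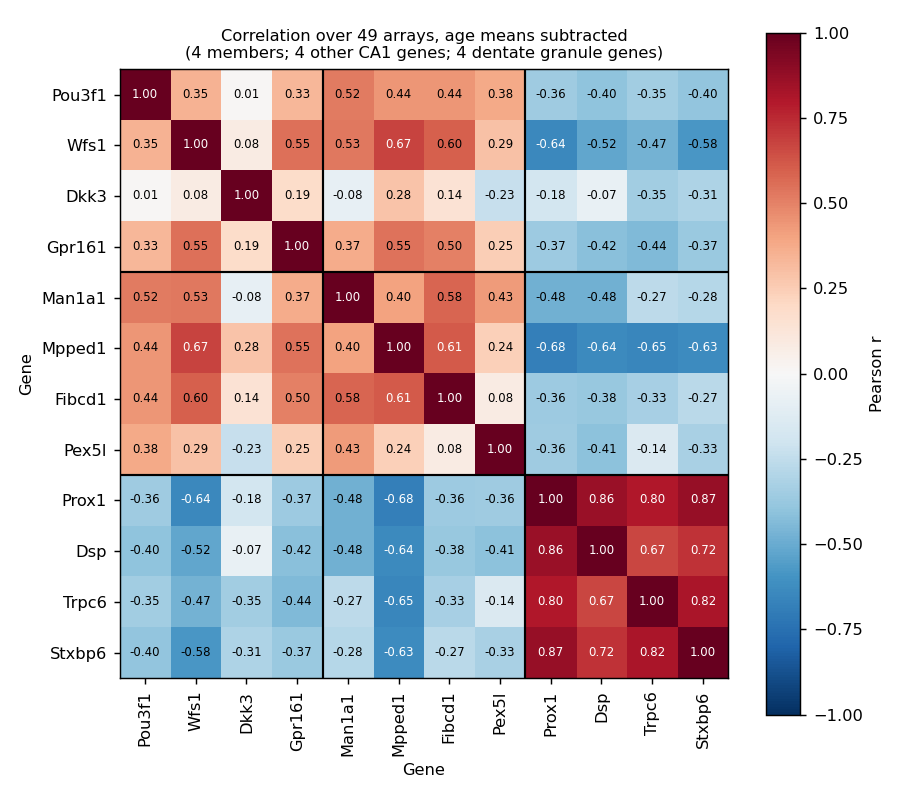
Pearson r over 49 arrays, age means subtracted, among the 4 members, 4 other genes of the CA1 list and 4 genes of dentate granule cells; both axes list genes and colour runs from −1 (blue) to 1 (red). Wfs1 and Gpr161 stand at 0.55, the row of Dkk3 is pale, and all 8 CA1 genes are negative with Prox1, Dkk3 least (−0.18).

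The genes most like each member were ranked by the same r over 49 arrays. For Pou3f1 they were Vps13b, a lipid transfer protein (0.73), Pou3f3, a POU factor of the same class (0.67), Hnrnph3 (0.66), Lrpprc (0.65) and Ap1ar (0.65). For Wfs1 they were Adgrl2, an adhesion receptor of the latrophilin group (0.70), Nek7, a kinase (0.70), Mpped1 (0.67), Gab1, a docking protein of receptor kinases (0.67), and Zfp180 (0.67). Gab1 was also among the 5 nearest to Gpr161 (0.64), after Plk2, a polo-like kinase (0.68), Cadps2, a protein of dense-core vesicle release (0.67), and Ociad2 (0.67), and before Rasd1 (0.61). The nearest to Dkk3 were Stmn4, a stathmin (0.68), Mpi, mannose phosphate isomerase (0.63), Fkbp4, a co-chaperone (0.60), Efhd2 (0.59) and Slc48a1 (0.59). None of these genes passed at 23 against 3 months (lowest adjusted p 0.112, for Fkbp4).

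In the lists of relatives and pathway partners Pou3f1 was the one gene that passed at 23 against 3 months, in a comparison that 3.26% of all genes passed. Of 3 tested POU factors 1 fell, Pou3f1 itself. Pou3f3 averaged 741 at 23 months and 836 at 3 months (log2 difference −0.17, adjusted p = 0.352), and Pou2f1 differed by −0.0093 (adjusted p = 0.988).

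Of 19 tested genes of endoplasmic reticulum folding and stress, the compartment of wolframin, 0 passed in limma and 5 had an unadjusted p under 0.05, Wfs1 among them. The median log2 difference was −0.026. Pdia4, a disulfide isomerase, was at −0.23 (adjusted p = 0.0948), and Sec61b, a subunit of the translocon, at −0.26 (adjusted p = 0.247). On Prox1, Wfs1 had the one negative slope of that list that passed, and Ddit3, a stress-induced transcription factor, the one positive slope (0.17, adjusted p = 3.91e-04).

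Of 20 tested Wnt pathway genes 0 passed and 2 had an unadjusted p under 0.05, of which Dkk3 was one, and the median was 0.028. Wif1, a secreted Wnt inhibitor, was the other (0.52, adjusted p = 0.171), and Tcf7l2, a transcription factor of the pathway, was at 0.14 (adjusted p = 0.380). Frzb, a secreted Wnt-binding protein, had a slope on Prox1 that passed (0.22, adjusted p = 0.0475).

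The hedgehog and primary cilium list held 25 genes, of which 11 were tested, and the receptors Ptch1 and Smo and the transcription factor Gli1 were not among those. Of the 11, 0 passed and 1 had an unadjusted p under 0.05, Gpr161, and the median was −0.023. Kif3b, a subunit of the ciliary kinesin, was at −0.074 (adjusted p = 0.506), and Bbs4, a component of the BBSome, at −0.096 (adjusted p = 0.592). Slopes on Prox1 passed for Prkaca, a catalytic subunit of protein kinase A (0.22, adjusted p = 0.0138), and for Bbs2, another BBSome component (−0.14, adjusted p = 0.0276). In none of these 3 pathway lists did a gene pass the plain two-sample test after adjustment either.

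Markers of other cells moved with the same contrasts, and their part in the members' values was not tested except where a fit is given. Beside the counts below, 2.41% of all genes tested passed as higher at 23 against 3 months and 0.852% as lower. Of 9 tested microglial genes 7 rose in that comparison, led by Cd53, Cd74, C1qa and C1qb (log2 differences 0.86, 1.65, 0.64 and 0.64). The summed signal of the microglial list, in which the brightest genes weigh most, lay between 4061 and 9587 at 23 months and between 3041 and 3434 at 3 months. Of 8 astrocyte genes 3 rose, Gfap (0.40), S100b (0.22) and Slc1a3 (0.19). Of 11 genes of all neurons 1 fell, Stmn2 (−0.30, adjusted p = 0.032), with a list median of −0.019. Of 5 genes of subiculum and cortex 1 fell, Slc17a6, a vesicular glutamate transporter (−0.42, adjusted p = 0.0139), while the list median was 0.080. Of 5 genes of blood and vessels 1 fell, Vtn (−0.62), the other 4 had higher means at 23 months without passing, and the list median was 0.17. In limma 0 of 7 genes of excitatory neurons, 0 of 9 of interneurons and 0 of 6 of choroid plexus passed, with 0, 1 and 0 at an unadjusted p under 0.05.

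Some genes listed for the neighbouring CA2 and CA3 fields had slopes on Prox1 opposite in sign to those of the members. Of 6 tested, 0 passed at 23 against 3 months and 2 had an unadjusted p under 0.05, Rgs14 (−0.19, adjusted p = 0.0557) and Bok (−0.16, adjusted p = 0.287). Pcp4, a calmodulin-binding protein of that list, had a slope on Prox1 of 0.35 (adjusted p = 2.16e-08) and an r of −0.70 with Wfs1, −0.50 with Pou3f1, −0.47 with Gpr161 and −0.14 with Dkk3. Grik4 and Ntf3 also had positive slopes that passed (0.30 and 0.54), so 3 of the 6 rose with Prox1 signal. Whether dentate granule cells also express these 3 genes was not tested. Of all genes 3.76% had a positive slope that passed. The slopes of Bok (−0.014), Rgs14 (−0.0065) and Amigo2 (0.039) were near 0 and did not pass (adjusted p at least 0.778).

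The myelin transcripts Mobp and Mbp were unevenly related to the members from array to array. Mobp had an r of 0.61 with Wfs1, 0.37 with Gpr161, 0.29 with Pou3f1 and 0.22 with Dkk3. Mbp had 0.52 with Wfs1, 0.52 with Dkk3, 0.33 with Gpr161 and 0.12 with Pou3f1. Of 7 oligodendrocyte genes 1 fell at 23 against 3 months, Ugt8 (−0.28, adjusted p = 0.0278), where 0.852% of all genes passed as lower. A negative slope on Prox1 passed for 3 (Mobp, Mog and Mag), where 2.72% of all genes had one. The summed signal of the list lay between 36107 and 48921 at 23 months and between 35775 and 44904 at 3 months. With the list's mean as a second covariate, chosen after the data were seen, the slope of Wfs1 on Prox1 was −0.15 (adjusted p = 0.0412), that of Pou3f1 −0.091 (adjusted p = 0.524), that of Gpr161 −0.087 (adjusted p = 0.556) and that of Dkk3 0.019 (adjusted p = 0.845). With the same mean as a covariate Pou3f1 was at −0.30 at 23 against 3 months (adjusted p = 0.0193).

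The log2 ratio of 3′ to 5′ actin control signal, a measure of RNA quality, averaged 0.93 at 23 months and 0.82 at 3 months. Over arrays with age means subtracted its r was 0.47 with Pou3f1, 0.40 with Wfs1, 0.29 with Gpr161 and −0.025 with Dkk3. With this ratio as a covariate, chosen after the data were seen, the difference of Pou3f1 at 23 against 3 months was −0.40 (adjusted p = 5.31e-04), Wfs1 was at −0.21 (adjusted p = 0.0773), Gpr161 at −0.23 (adjusted p = 0.141) and Dkk3 at −0.12 (adjusted p = 0.224).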

How the data were processed

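RNA of 49 CA1 samples, 1 rat each, was measured on Affymetrix RAE 230A arrays. The deposited values are intensity signals that the authors computed with MAS5 (per the submitters' processing notes) and scaled on the whole array to a target of 500 (per the series' design text). The MAS5 version is not given in the sources used here. The design text gives the oldest age as 25 months in one place, and the 23 months of the labels was used. Per the same text 2 old rats left the study in poor health. Presence calls, scan dates and behaviour scores are not analysed here, array batches could thus not be examined, and 0 sample columns were left unused.

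Of 15923 probe sets, 57 were controls, 12789 had 1 gene symbol, 312 several and 2822 none listed. Symbols were updated through RefSeq (GRCr8, 12754 of 12789 Entrez IDs matched, names only). Each of 10412 genes was read from its brightest probe set, and 8094 genes with a signal of 100 or more on 5 or more arrays, in place of presence calls, were tested. Signals under 16 were set to 16 (0.047% of tested values) before log2. The median signal of an array was 208 to 224.9, and no 2 arrays were alike (SD of log2 differences at least 0.24 over 1176 pairs). The number of arrays limits the precision.

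limma 3.58.1 in R 4.3.3 (lmFit, eBayes with trend) was fitted on all 49 arrays with a mean per age, alone and with log2 Prox1, and a gene was called at a Benjamini-Hochberg adjusted p under 0.05. Correlations used Python 3.11.15 and scipy 1.17.1. Each array is another rat, and p-values reflect the spread between rats. The members and the gene lists were chosen with earlier results of these data known. Named were the members, Prox1, in each list at most 4 genes passing at 23 against 3 months or else the 2 of smallest p, and the 5 genes most like each member; the other list genes named were the few with a called slope or a link to a covariate. On simulated data of 8094 genes the 23 against 3 month fit recovered 27, 48, 50 and 48 of 50 genes changed by 0.25, 0.5, 1 and 2 (log2), with 9 false among 182 calls, and on 8093 genes the Prox1 fit recovered 30 of 50 slopes of 0.2 with 0 false. Alternatives covered the floor, filter, normalization, probe sets, variance model, array weights, samples fitted, the methods' plain tests, covariates, the replicate number as a block, and arrays left out.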

Additional observations from a re-analysis of the deposited data

How the results depend on the processing

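Pou3f1 at 23 against 3 months kept its direction in 19 alternatives and lost its call in 2: in the methods' plain tests (−0.32, adjusted p = 0.093) and without the arrays of high Hbb signal (−0.28, adjusted p = 0.0594), where 2 fewer animals entered the fit. With each of 22 arrays left out it ran from −0.37 to −0.29 (adjusted p 0.0049 to 0.0494) and stayed called. Over 5 ages Pou3f1 passed with the actin ratio as a covariate (adjusted p = 0.00822) and as a line in months (adjusted p = 0.0171), and Dkk3 passed as a line (adjusted p = 0.0375). The line of Dkk3 lost its call under quantile normalization (−0.14, adjusted p = 0.0566), with the actin ratio (−0.14, adjusted p = 0.067), without the arrays of high Ttr signal (−0.12) and without those of high Hbb signal (−0.14), and ran from −0.17 to −0.12 (adjusted p 0.0143 to 0.0975) over arrays left out. That of Pou3f1 lost it without the arrays of high Hbb signal (−0.24) and ran from −0.31 to −0.25. With the dentate list in place of Prox1 the slopes of Pou3f1 (−0.24) and Gpr161 (−0.27) passed, with no share of all genes computed. The slope of Gpr161 on Prox1 ran from −0.17 to −0.13 over arrays left out, passing in 1 of 49. The Wfs1 slope stayed called in 10 alternatives (−0.27 to −0.15), where −0.27 is the slope on the dentate list in place of Prox1. Genes called at 23 against 3 months numbered 173 without the arrays of high Ttr signal, where 5 fewer arrays entered, against 264. The difference of Prox1 had either sign, from −0.093 to 0.18 over its alternatives and arrays left out, and passed in none of them. The cause of a lost or gained call was not tested in any alternative, also where fewer arrays entered the fit. The labels do not say that a replicate number marks a shared batch or day, and the numbers were not taken as a pairing: same-numbered arrays of different ages had a mean r of 0.065 (−0.13 to 0.36), other pairs −0.0063, and 17 of 44 arrays with a partner correlated best with their own number. With the replicate block Pou3f1 was at −0.41 (adjusted p = 0.00534) with 269 genes called, its slope on Prox1 was −0.16 (adjusted p = 0.191), and the line of Dkk3 was −0.093 (adjusted p = 0.387).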
